A study of Mus musculus with 48 samples.

Results

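The genes described here are the 10 best known components of MHC class I antigen presentation and of the immunoproteasome, measured in the lungs of 48 mice. They were chosen by symbol from the 47561 genes of the deposited expression table, with no measured value in the rule, and all 10 were found. They fall into 4 roles: the heavy chains H2-K1 and H2-D1 with the light chain B2m; the peptide transporter subunits Tap1 and Tap2 with the loading chaperone Tapbp (tapasin); the immunoproteasome catalytic subunits Psmb8, Psmb9 and Psmb10; and Nlrc5, the transactivator of class I genes. RNA was sequenced from the lungs of adult mice of the inbred strains C3H/hen (C3H) and C57Bl/6 (C57B), both sexes, with 3 mice in each of 16 groups. Each mouse had received 1 intraperitoneal injection, of saline or of 25 mg/kg aurothioglucose (ATG, a gold drug that blocks the enzyme thioredoxin reductase), and had then breathed room air or hyperoxia (above 95% oxygen) for 96 h. No group carries a genetic modification. The sources differ on the C57B substrain and on whether every mouse had ATG, so the groups used here rest on the labels of the single samples. With sexes pooled, the 8 combinations of strain, injection and air hold 6 lungs each.

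Class I molecules show peptides from the inside of the cell to CD8 T cells, and nearly every nucleated cell makes them. Proteasomes cut proteins into peptides, the TAP transporter carries these into the endoplasmic reticulum, and tapasin holds the empty class I molecule next to the transporter until a peptide binds. Interferon-gamma, through factors such as IRF1 and NLRC5, raises most of these genes and exchanges the constitutive proteasome subunits Psmb5, Psmb6 and Psmb7 for Psmb8, Psmb9 and Psmb10, which favours peptides that fit class I molecules. C3H mice carry the k haplotype of the H2 complex and C57Bl/6 mice the b haplotype, so their heavy chain genes differ in sequence.

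In the GRCm38 assembly (mm10), 7 of the genes lie in the H2 complex on chromosome 17. Of these, Tapbp (chr17:33915899-33929292, plus strand), H2-K1 (chr17:33996017-34000347, minus strand), Psmb9 (chr17:34181987-34187764, minus strand), Tap1 (chr17:34187553-34197225, plus strand), Psmb8 (chr17:34197721-34201454, plus strand), Tap2 (chr17:34203527-34216321, plus strand) and H2-D1 (chr17:35262730-35267499, plus strand) are given in map order. B2m is at chr2:122147686-122153083 on the plus strand, Nlrc5 at chr8:94434356-94527272 on the plus strand and Psmb10 at chr8:105935735-105938444 on the minus strand. Psmb9 and Tap1 overlap at their starts and run in opposite directions.

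Promoters are shown where at least 150 of the 250 bases before the transcript start lie outside annotated exons. This left those of B2m and H2-K1, which did not pass the test of hyperoxia over both strains, and of Psmb10, which fell. The sequences are those of RefSeq (GRCm38.p6), 5′ to 3′ on the strand of the gene, and end at the transcript start or at the first base annotated as an exon. Capitals mark matches on either strand to 3 motifs: an IRF element (GAAA and GAAA with any 2 bases between them), a GAS (gamma-activated site) element (TTCNNNGAA), and a kB-like element (GGG, any 2 bases, TT, any 1 base and CC).
B2m promoter, chr2:122147437-122147685: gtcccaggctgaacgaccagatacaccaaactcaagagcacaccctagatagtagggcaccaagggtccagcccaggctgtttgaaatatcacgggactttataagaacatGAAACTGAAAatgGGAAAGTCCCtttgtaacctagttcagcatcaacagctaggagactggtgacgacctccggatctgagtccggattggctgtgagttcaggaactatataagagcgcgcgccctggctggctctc
H2-K1 promoter, chr17:34000348-34000597: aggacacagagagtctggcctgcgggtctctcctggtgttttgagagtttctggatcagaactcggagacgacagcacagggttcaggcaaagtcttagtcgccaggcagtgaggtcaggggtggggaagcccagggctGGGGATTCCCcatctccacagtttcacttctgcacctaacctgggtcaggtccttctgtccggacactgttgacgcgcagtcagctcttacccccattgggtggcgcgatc
Psmb10 promoter, chr8:105938445-105938642: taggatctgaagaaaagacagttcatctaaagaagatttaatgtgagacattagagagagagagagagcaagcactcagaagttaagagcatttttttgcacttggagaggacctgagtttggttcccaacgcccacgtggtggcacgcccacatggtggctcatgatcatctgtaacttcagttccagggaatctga

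Promoters were found for 8 of the 10 genes. The windows of 250 bases before the RefSeq start were searched. For 5 of the 8 genes (Tapbp, Psmb9, Tap1, Psmb8 and H2-D1) the whole window lies in annotated exons. Those of Tapbp, Psmb9, Psmb8 and H2-D1 lie inside the coordinates of their own gene given above, so their matches are not upstream of the gene as annotated. The IRF element was present in 1 of the 8 (B2m) and in 2.98% of all 32851 mouse promoters in the table, the GAS element in 1 of the 8 (Psmb8) and in 7.02%, and the kB-like element in 3 of the 8 (B2m, H2-K1 and H2-D1) and in 4.11%. The CCAAT box, searched as ATTGG, was present in 6 of the 8 and in 33.8% of all promoters. The kB-like elements of both heavy chain genes begin stretches with 29 of 30 bases identical. That of H2-D1 lies before the RefSeq start but in an annotated exon inside the gene coordinates given above.
H2-K1, chr17:34000429-34000458: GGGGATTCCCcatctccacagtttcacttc
H2-D1, chr17:35262923-35262952: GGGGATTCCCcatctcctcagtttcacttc
None of these letters were found in the Psmb10 window. A match is a stretch of letters and says nothing of binding in these lungs. Only exact matches to the given letters were counted, so a gene without a match may still hold a site of another spelling.

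Several facts about the libraries touch the values. Levels are FPKM, mapped fragments scaled to transcript length and library size, so levels of different genes can be compared. The summed FPKM ran from 510933 to 748290 per lung, and the club cell gene Scgb1a1 alone took 1.2 to 30.2% of it, which shifts every other FPKM. Its share was 10.4 to 30.2% in room air and 1.2 to 7.17% in hyperoxia, so this shift runs with air. Rises in hyperoxia carry this limit, and no rescaled values are given below for Psmb5, Psmb6 and Psmb7. The strain labels were checked with H2-Ea-ps, the class II gene that is active in k and silent in b mice, which was 100.3 to 302.7 FPKM in the 24 C3H lungs and at most 2.279 FPKM in the 24 C57B lungs. All 4179 genes of the sex chromosomes were listed at 0, so sex rests on the labels. The lungs of C3H males 1 and 3 in saline and room air stood apart, with 143.4 and 85.3 FPKM of Psmb9 against 41.4 in male 2, and results that change without both are given both ways. Reads were mapped to a C57BL/6J sequence, and 28.9% of the 30-base words of H2-D1 and 24.3% of those of H2-K1 also occur in other transcripts, mostly in each other. The share was 24.6% for Tapbp, 17.6% for Tap2 and 15.7% for Psmb8. It was 2.98% for Psmb9, and lower for Tap1, Nlrc5, B2m and Psmb10. Among genes compared below, it was 74.7% for Psmb5, 53.6% for H2-Q6, 51% for Psme2 and 37.6% for H2-Q7, but 8.7% for Psmb6. The Psmb8 to Psmb5 ratio and the strain differences of H2-Q6 and H2-Q7 thus carry this limit too. How completely reads of C3H alleles were mapped and how shared reads were divided was not tested. In whole lung, fewer cells of a type and less RNA per cell cannot be told apart.

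All 10 genes were above 0 in all 48 lungs. In saline and room air, B2m had the highest mean level in both strains, followed by the heavy chains, then Tapbp, the immunoproteasome subunits, Tap2 and Tap1, with Nlrc5 lowest. B2m was 1398 ± 443 FPKM (SD, n = 6) in C3H and 1678 ± 114 FPKM in C57B. Nlrc5 was 1.998 ± 0.872 FPKM in C3H and 4.172 ± 1.187 FPKM in C57B, near the lower limit of 1 FPKM used for testing. The spread of B2m in C3H, from 768.2 to 2012 FPKM, covered the whole C57B range.

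**Figure D1:**
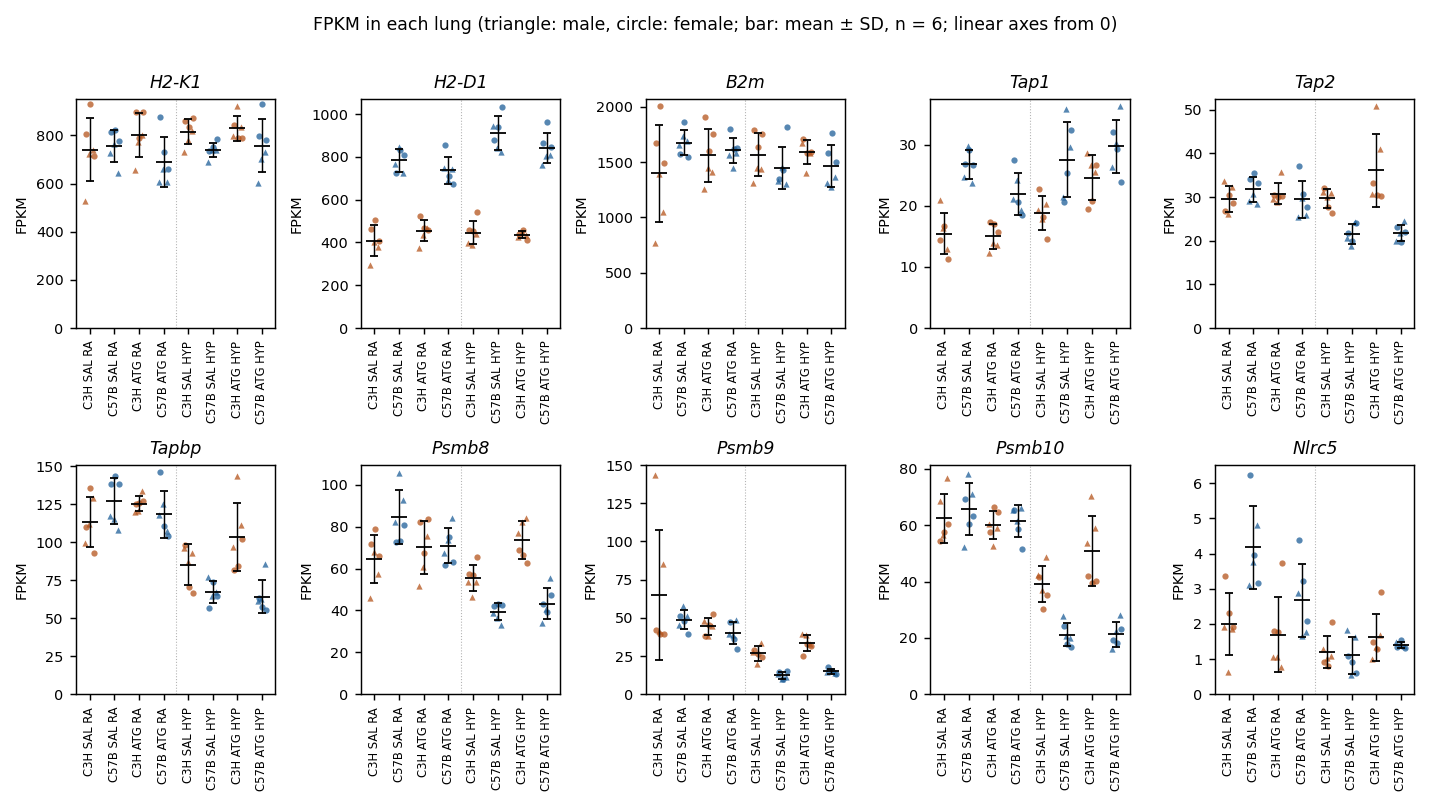
FPKM (linear axis from 0) of the 10 genes in each lung, by strain, injection (SAL saline, ATG aurothioglucose) and air (RA room air, HYP hyperoxia); triangles are males, circles females, bars the mean ± SD of 6 lungs. H2-D1 is lower in every C3H lung than in every C57B lung, while Psmb8, Psmb9 and Psmb10 are lowest in C57B lungs in hyperoxia.

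The first comparison asks how the strains differ at rest, in saline and room air. H2-D1 and Tap1 were lower in C3H in every lung, Nlrc5 and Psmb8 were lower on average, and the other 6 genes did not pass the test. H2-D1 was 293.7, 402.9 and 505.6 FPKM (lowest, median and highest) in C3H and 725.1, 787.6 and 846.6 FPKM in C57B. The difference (C3H minus C57B, on the log2(FPKM + 1) scale used for all differences below) was -0.96 ± 0.10 (SE; limma adjusted p = 7.1e-05). Tap1 was 11.36, 15.4 and 20.87 FPKM in C3H and 23.7, 26.7 and 29.75 FPKM in C57B, a difference of -0.78 ± 0.13 (limma adjusted p = 0.0021). For both genes the groups did not overlap, and exact permutation tests of FPKM gave the smallest p they can give, 0.00216 (two-sided, adjusted over 30 tests 0.00648).

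Nlrc5, at 0.6454, 1.913 and 3.358 FPKM in C3H and 3.104, 3.861 and 6.234 FPKM in C57B, differed by -0.81 ± 0.20 (limma adjusted p = 0.02) with ranges that overlapped slightly. Psmb8, the chymotrypsin-like subunit of the immunoproteasome, was 45.98, 66.99 and 79.07 FPKM in C3H against 72.61, 81.54 and 105.8 FPKM in C57B and differed by -0.39 ± 0.11 (limma adjusted p = 0.037). Without C3H males 1 and 3 the Psmb8 difference was -0.26 (limma adjusted p = 0.154) and those of H2-D1 (-0.87), Tap1 (-0.78) and Nlrc5 (-1.08) passed. Leaving out 1 mouse at a time removed the call of Psmb8 in 9 of 12 fits and that of Nlrc5 in 1, without C57B male 15. In all, 4 of 10 genes were called, beside 11.8% of the 15546 genes tested. None were higher in C3H (3.92% of all genes) and 4 were lower (7.87%). The median of the 10 was -0.25 and the median of all genes -0.10, and 3.85% of all genes were lower in every C3H lung. The 609 higher and 1223 lower calls of all genes became 974 and 930 with quantile normalization, which removed the call of Nlrc5 (-0.63, limma adjusted p = 0.101), and 933 and 998 with median ratio scaling, which removed that of Psmb8 (-0.28, 0.0731).

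H2-K1, the other classical heavy chain, was 740 ± 131 FPKM in C3H and 758 ± 66.5 FPKM in C57B, with a difference of -0.05 and a 95% interval from -0.28 to 0.19. The difference in Psmb9 was 0.22 with an interval from -0.28 to 0.72, and it was -0.25 without C3H males 1 and 3. For Psmb10 it was -0.07, for Tap2 -0.10, for Tapbp -0.17 and for B2m -0.33, none of which passed.

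Among other class I genes of the H2 complex, 4 of 12 were higher and 3 lower in C3H, beside 3.92% and 7.87% of all genes. The Qa-2 genes H2-Q6 (-3.50 ± 0.15) and H2-Q7 (-2.36 ± 0.29) had the largest differences, and H2-Q1 was higher in C3H (1.51 ± 0.15). The interferon-gamma axis, a list of receptors, signalling factors and target genes, had 6 of 16 tested genes lower in C3H and none higher, with a median of -0.38. Igtp (-0.74 ± 0.13) and Gbp2 (-0.72 ± 0.16), interferon-inducible GTPases, led the list. Irf1, an interferon-inducible transcription factor, was 51.98 ± 2.88 FPKM in C3H and 52.17 ± 5.14 FPKM in C57B. None of the 3 constitutive catalytic subunits, the 5 proteasome activators and maturation factors or the 8 assembly and trimming genes passed.

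Leukocyte markers moved with this difference. In C3H, 6 of 8 T cell markers, 5 of 6 B cell markers, 2 of 7 NK cell markers and 6 of 6 neutrophil markers were lower (7.87% of all genes), and none were higher (3.92%). The summed FPKM of the B cell markers was 22.45 to 73.36 in C3H and 81.51 to 107.5 in C57B, and that of the T cell markers 18.97 to 40.69 and 45.98 to 76.13. Their part in the differences of H2-D1, Tap1, Nlrc5 and Psmb8 was not tested.

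The strain difference was measured again in 3 other conditions, each with its own 12 lungs. In ATG and room air 2 of 10 genes were called, H2-D1 and Tap1, beside 18.3% of 15374 genes. H2-D1 was lower in C3H in all 4, by -0.70 ± 0.08 in ATG and room air, -1.03 ± 0.08 in saline and hyperoxia and -0.95 ± 0.06 in ATG and hyperoxia (limma adjusted p = 0.00015, 6.8e-06 and 1e-06). Over all 48 lungs, the 4 group means of C57B were all above the 4 of C3H, and the lowest C57B group (737.3 ± 64.05 FPKM) and the highest C3H group (454.2 ± 48.88 FPKM) did not overlap. Tap1 was lower in C3H in ATG and room air (-0.52 ± 0.10, limma adjusted p = 0.0043) and in saline and hyperoxia (-0.51 ± 0.15, 0.028, a call lost in 5 of 12 fits without 1 mouse), and differed by -0.26 ± 0.11 in ATG and hyperoxia, which did not pass (0.095).

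**Figure D2:**
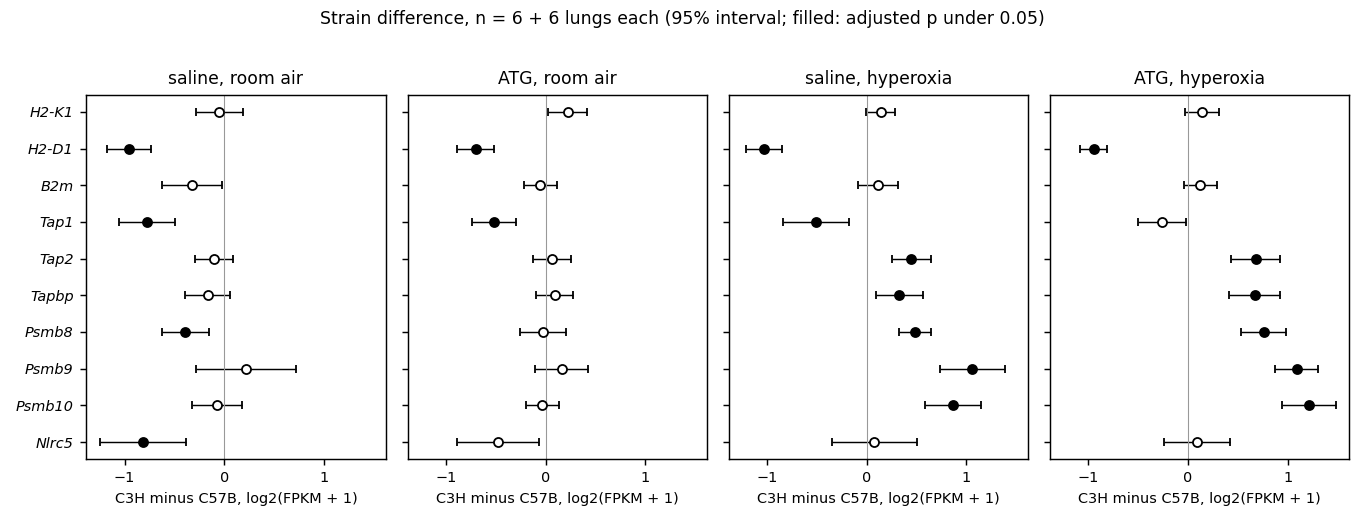
Difference between strains (C3H minus C57B, log2(FPKM + 1)) of the 10 genes in the 4 conditions, with 95% intervals; filled points have a limma adjusted p under 0.05. H2-D1 lies left of 0 in every panel, and Tap2, Tapbp and the 3 immunoproteasome subunits lie right of 0 in the panels of hyperoxia.

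In hyperoxia the immunoproteasome subunits were higher in C3H. In saline and hyperoxia, 5 of 10 genes were higher in C3H (16.0% of the 15046 genes tested) and 2 were lower (12.2%). Psmb9, the subunit encoded head to head with Tap1, was 19.6, 27.14 and 33.48 FPKM in C3H and 9.683, 12.35 and 15.01 FPKM in C57B (difference 1.06 ± 0.15, limma adjusted p = 0.00051). Psmb10 was 30.16, 39.42 and 48.56 FPKM in C3H and 16.77, 20.23 and 27.67 FPKM in C57B (0.87 ± 0.13, 0.0007). Psmb8 was 46.36, 55.38 and 65.55 FPKM in C3H and 33.13, 40.66 and 43.2 FPKM in C57B (0.48 ± 0.07, 0.00078). Every C3H lung was above every C57B lung for these 3 genes and for Tap2 (0.45 ± 0.09), which 6.23% of all genes also showed. Tapbp (0.33 ± 0.11, limma adjusted p = 0.04) overlapped between strains, and its call was lost under median ratio scaling and in 8 of 12 fits without 1 mouse. In room air the same subunits had shown no called excess in C3H.

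The mice given ATG and hyperoxia, a separate set of 12 lungs, gave differences of 0.76 ± 0.10 for Psmb8, 1.09 ± 0.10 for Psmb9, 1.21 ± 0.12 for Psmb10, 0.68 ± 0.11 for Tap2 and 0.67 ± 0.12 for Tapbp, all called higher, beside 14.3% of 15142 genes. H2-D1 was the 1 gene lower (12.9% of all genes). H2-K1, B2m and Nlrc5 were not called in either hyperoxia condition.

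The next comparison asks what 96 h of hyperoxia changed in mice given saline. The immunoproteasome subunits, Tapbp, Tap2 and Nlrc5 fell, H2-D1 rose slightly, and H2-K1, B2m and Tap1 did not pass the test. Across both strains the fall was -1.49 ± 0.12 for Psmb9, -1.13 ± 0.08 for Psmb10, -0.86 ± 0.13 for Nlrc5, -0.66 ± 0.07 for Tapbp, -0.64 ± 0.07 for Psmb8 and -0.27 ± 0.06 for Tap2 (limma adjusted p from 1.9e-14 to 0.00047). The rise of H2-D1 was 0.18 ± 0.05 (limma adjusted p = 0.0055), and with quantile normalization it became -0.011. Hyperoxia moved most of the transcriptome, with 61.6% of 16994 genes called, 32.4% higher and 29.1% lower, so 6 of 10 lower is to be read beside that share. The median of the 10 genes was -0.45 and that of all genes 0.01.

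The fall was larger in C57B. There, Psmb9 went from 39.47, 49.52 and 58.01 FPKM in room air to 9.683, 12.35 and 15.01 FPKM in hyperoxia, a ratio of means of 0.253 and a difference of -1.91 ± 0.17 (limma adjusted p = 8.7e-12). Psmb10 went from 52.21, 66.34 and 78.29 FPKM to 16.77, 20.23 and 27.67 FPKM (ratio of means 0.321, difference -1.60 ± 0.12), and Psmb8 from 72.61, 81.54 and 105.8 FPKM to 33.13, 40.66 and 43.2 FPKM (0.467, -1.07 ± 0.10). No lung in hyperoxia reached the lowest lung in room air for any of them. The same held for Nlrc5 (4.172 ± 1.187 to 1.101 ± 0.5279 FPKM, difference -1.31 ± 0.19), Tapbp (127 ± 14.94 to 67.3 ± 7.174 FPKM, -0.90 ± 0.11) and Tap2 (31.81 ± 2.884 to 21.58 ± 2.245 FPKM, -0.54 ± 0.09), 6 genes in all. Such separate lower ranges were found for 15.9% of all genes. By the limma test, 7 of 10 genes were lower (31.0% of all genes), the seventh being B2m at -0.22 ± 0.10 (limma adjusted p = 0.047), a call that other filters, either scaling and 8 of 12 fits without 1 mouse removed. H2-D1 was the 1 gene higher (0.21 ± 0.08, 26.4% of all genes), a call lost with quantile normalization (0.05, limma adjusted p = 0.61) and in 4 of 12 fits without 1 mouse (C57B males 15 and 19 and females 37 and 45).

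In C3H, 3 of 10 genes were lower in hyperoxia (13.9% of all genes) and none were higher (27.3%). Psmb9 went from 39.31, 41.56 and 143.4 FPKM to 19.6, 27.14 and 33.48 FPKM (difference -1.07 ± 0.17, limma adjusted p = 4.1e-06), and without C3H males 1 and 3 its difference was -0.61. Psmb10 went from 54.29, 59.05 and 76.73 FPKM to 30.16, 39.42 and 48.56 FPKM (-0.66 ± 0.12). Both subunits were lower in every lung, as were 4.01% of all genes. Tapbp went from 113.3 ± 16.4 to 85.22 ± 13.49 FPKM (-0.41 ± 0.11). The difference in Psmb8 was -0.20 ± 0.10 (limma adjusted p = 0.11) and that in Nlrc5 -0.42 ± 0.19 (0.069), neither of which passed, although Psmb8 passed with quantile normalization (-0.37), with median ratio scaling (-0.36) and without C3H males 1 and 3 (-0.33). Nlrc5 passed with median ratio scaling (-0.52, limma adjusted p = 0.0331) and was -0.15 without those males, and B2m was called higher with quantile normalization (0.43, limma adjusted p = 0.00596). The 4633 higher and 2360 lower calls of all genes became 3483 and 3363 with the first scaling and 3323 and 3572 with the other. Tap2 was 29.62 ± 2.977 FPKM in room air and 29.73 ± 2.229 FPKM in hyperoxia, with an interval of the difference from -0.18 to 0.19.

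The 3 genes that did not pass over both strains were H2-K1, B2m and Tap1, with these values. H2-K1 was 527.3, 731.6 and 929.1 FPKM in C3H in room air and 731.4, 826.4 and 871.1 FPKM in hyperoxia, and in C57B it was 641.9, 770.1 and 823.5 FPKM and 691.4, 738.2 and 785.2 FPKM, so the ranges overlapped in both strains. Over both strains its difference was 0.06 with an interval from -0.05 to 0.18. B2m was 1315.8, 1546.4 and 1795.2 FPKM in C3H in hyperoxia and 1306.1, 1389.8 and 1814.5 FPKM in C57B, with a difference over both strains of 0.00 and an interval from -0.14 to 0.14. Tap1, which pairs with Tap2 in the transporter, was 14.57, 18.7 and 22.77 FPKM in C3H in hyperoxia and 20.68, 27.47 and 35.87 FPKM in C57B, a difference of 0.15 with an interval from -0.03 to 0.33. H2-D1 in C57B was 725.1 to 846.6 FPKM in room air and 822.5 to 1034.6 FPKM in hyperoxia, with a slight overlap.

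**Figure D3:**
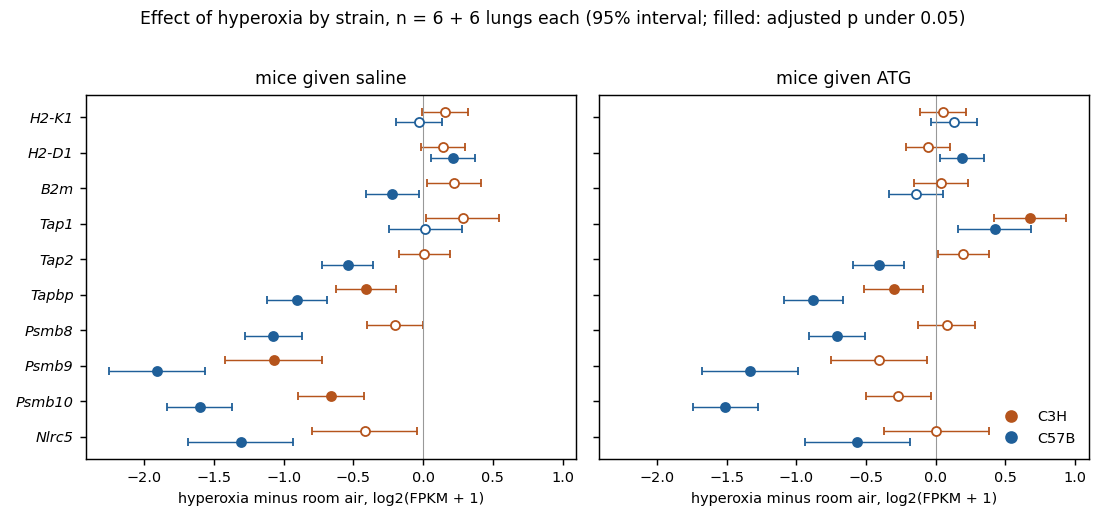
Difference between hyperoxia and room air (log2(FPKM + 1)) of the 10 genes in C3H and C57B, in mice given saline (left) and ATG (right), with 95% intervals; filled points have a limma adjusted p under 0.05. In both panels Tap2, Tapbp and the immunoproteasome subunits lie further left in C57B than in C3H, and H2-K1 lies near 0.

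The difference between the strains in the effect of hyperoxia was tested directly as an interaction. It was called for 7 of 10 genes, all with a higher effect in C3H than in C57B, beside 17.6% of all genes (13.3% in this direction and 4.37% in the other). The estimates (C3H effect minus C57B effect) were 0.94 ± 0.16 for Psmb10, 0.89 ± 0.26 for Nlrc5, 0.87 ± 0.14 for Psmb8, 0.84 ± 0.24 for Psmb9, 0.55 ± 0.13 for Tap2, 0.49 ± 0.15 for Tapbp and 0.44 ± 0.13 for B2m (limma adjusted p from 4.8e-05 to 0.021). For B2m the effects had opposite signs (0.22 ± 0.10 in C3H, not called, and -0.22 ± 0.10 in C57B), for Tap2 the C3H effect was 0.01, and for the other 5 genes both effects were below 0. Without C3H males 1 and 3 the call of B2m was lost (0.23, limma adjusted p = 0.215), the estimate for Psmb9 was 1.30 and the other 5 genes stayed called. H2-D1, at -0.07, H2-K1, at 0.19, and Tap1, at 0.27, were not called. The median over all genes was itself 0.15. Median ratio scaling brought that median to 0.0025 and left 2 calls, Psmb8 (0.68) and Psmb10 (0.75), with Psmb9 at 0.65 (limma adjusted p = 0.101), while quantile normalization kept 6, all but Nlrc5. The split of all calls moved from 2252 higher and 742 lower to 1300 and 1572 with median ratio scaling and to 1270 and 1361 with quantile normalization.

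The 24 mice given ATG, a set added after the saline values had been seen, shared no lung with these. In them the interaction was 1.24 ± 0.16 for Psmb10, 0.93 ± 0.24 for Psmb9, 0.79 ± 0.14 for Psmb8, 0.61 ± 0.13 for Tap2 and 0.58 ± 0.15 for Tapbp, 5 of 10 genes (6.50% of all genes), and it was not called for B2m (0.18 ± 0.13) or Nlrc5 (0.57 ± 0.26). Within C57B mice given ATG, 6 genes were lower and 2 higher in hyperoxia (23.8% and 28.3% of all genes), with Psmb10 at -1.51 ± 0.12 and Psmb9 at -1.33 ± 0.17. Within C3H mice given ATG, Tapbp was the 1 gene lower (-0.30 ± 0.11, 15.9% of all genes) and Tap1 the 1 gene higher (0.68 ± 0.13, 27.7%). Psmb9 differed there by -0.41 ± 0.17 (limma adjusted p = 0.052), Psmb10 by -0.27 ± 0.12 (0.057) and Psmb8 by 0.08 ± 0.10.

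The ratio of each immunoproteasome subunit to the constitutive subunit that it replaces does not change when a library is multiplied by a constant. All 3 constitutive subunits rose in hyperoxia in saline, Psmb7 by 0.74 ± 0.05, Psmb5 by 0.56 ± 0.06 and Psmb6 by 0.38 ± 0.05. In C57B the ratio of Psmb9 to Psmb6 was 0.277 to 0.394 in room air and 0.0527 to 0.0798 in hyperoxia, and in C3H it was 0.267 to 0.857 and 0.117 to 0.177. The log2 ratio fell by 2.45 in C57B and by 1.41 in C3H (exact permutation p = 0.00216 each, two-sided, adjusted over 9 tests 0.0039). For Psmb10 to Psmb7 (the trypsin-like pair) it fell by 2.47 in C57B and by 1.35 in C3H (exact permutation p = 0.00216 each, adjusted 0.0039). For Psmb8 to Psmb5 (the chymotrypsin-like pair) it fell by 1.77 in C57B (exact permutation p = 0.00216, adjusted 0.0039) and by 0.65 in C3H (exact permutation p = 0.013, adjusted 0.0195). Of these 6 pairs of ranges only the last overlapped, through C3H male 1 (0.422 in room air). Without C3H males 1 and 3 the difference in C3H was -0.92 for Psmb8, with no overlap, -1.07 for Psmb9 and -1.06 for Psmb10 (exact permutation adjusted p = 0.0143 each).

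In room air none of the 3 ratios differed between strains beyond the spread of the lungs (exact permutation adjusted p = 0.719 each). In hyperoxia all 3 were higher in every C3H lung than in every C57B lung, by 1.02, 1.20 and 1.21 on the log2 scale for Psmb8, Psmb9 and Psmb10 in saline and by 1.40, 1.07 and 1.38 in ATG. Exact permutation tests of these 6 differences, chosen after the values had been seen, each gave p = 0.00216, the smallest possible. That p follows from the separate ranges and adds nothing to them.

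**Figure D4:**
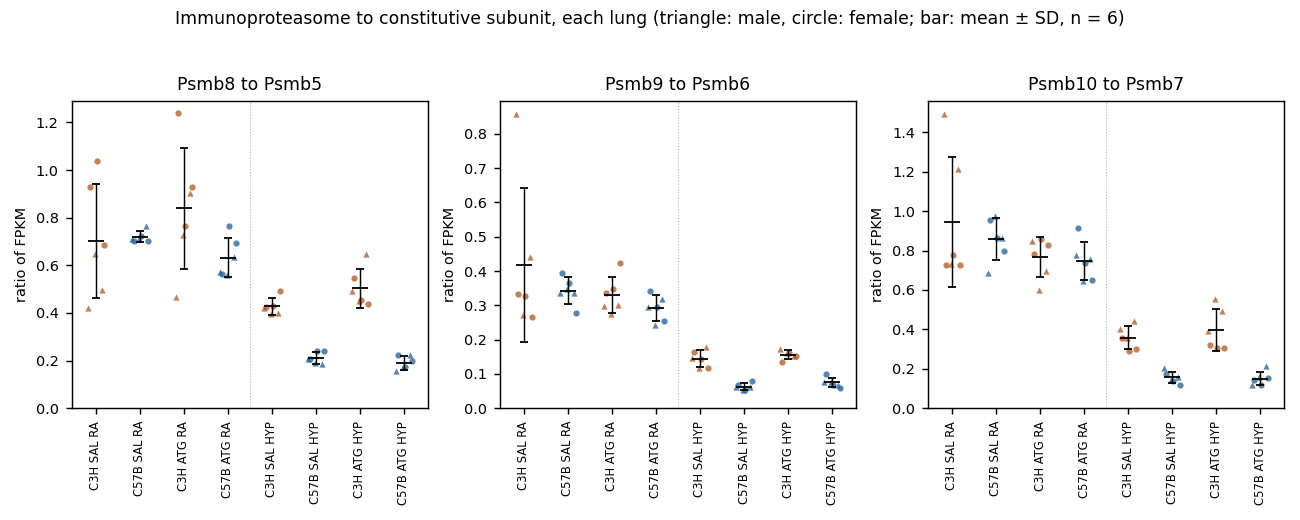
Ratio of the FPKM of each immunoproteasome subunit to that of its constitutive partner in each lung (linear axis from 0), by strain, injection and air; triangles are males, circles females, bars the mean ± SD of 6 lungs. All 3 ratios are lowest in C57B lungs in hyperoxia, where Psmb9 to Psmb6 lies between 0.0527 and 0.0798 in saline.

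The wider pathway split in the same comparison (hyperoxia in saline, both strains). Its counts are to be read beside the 32.4% of all genes higher and 29.1% lower there. Psme1 and Psme2, the subunits of the interferon-inducible PA28 activator, fell (-0.41 ± 0.07 and -0.52 ± 0.14), whereas Psme4 (0.74 ± 0.09) and Psme3 (0.59 ± 0.07), activators of other proteasome forms, rose. Of the 8 assembly and trimming genes 4 rose and 4 fell, with a median of -0.17. Sec61b (-0.80 ± 0.11) and Tapbpl (-0.64 ± 0.08), a peptide editor related to tapasin, fell most. Of 12 other class I genes 6 rose and 3 fell, H2-T24 by -1.91 ± 0.15 and H2-T23, which encodes the nonclassical molecule Qa-1, by -1.26 ± 0.07. H2-Q7 (0.53 ± 0.14) was among those that rose.

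Among 12 class I promoter factors 1 rose (Rela, 0.81 ± 0.06) and 5 fell, with Irf1 at -0.74 ± 0.08, beside 32.4% and 29.1% of all genes. Of 17 tested genes of the interferon-gamma axis 10 fell and 4 rose, with a median of -0.52 against 0.01 for all genes. Gbp3 (-1.42 ± 0.11) and Gbp5 (-1.09 ± 0.09) fell most, and Cxcl10, which encodes a T cell chemokine, rose by 1.05 ± 0.26. Irf1 went from 52.17 ± 5.144 to 23.67 ± 3.738 FPKM in C57B and from 51.98 ± 2.882 to 40.5 ± 5.921 FPKM in C3H, and the effects differed between the strains by 0.75 ± 0.16 (limma adjusted p = 0.00089). The interferon-gamma axis had 7 of 17 genes with a higher effect of hyperoxia in C3H (13.3% of all genes) and none with a lower one (4.37%). Ifng itself was listed at 0 in 19 of 48 lungs and reached at most 0.804 FPKM, so its level could not be compared.

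Lymphocyte markers fell in the same comparison, with 8 of 8 T cell, 7 of 7 NK cell and 6 of 6 B cell markers lower (29.1% of all genes). Over both strains 6 of 6 neutrophil markers rose (32.4% of all genes), but not all were called within each strain. Their median sum was 189.9 FPKM in room air and 208.6 FPKM (highest 6298.5) in hyperoxia in C3H. In C57B it was 468.2 FPKM and 3080.9 FPKM, and the ranges overlapped in both strains. The summed B cell markers in C57B went from 81.51 to 107.5 FPKM in room air to 14.74 to 32.06 FPKM in hyperoxia, and in C3H from 22.45 to 73.36 to 16.84 to 23.17 FPKM. The summed NK cell markers went from 61.76 to 125.9 to 7.79 to 19.79 FPKM in C57B and from 43.23 to 117.6 to 24.8 to 49.18 FPKM in C3H. Of these markers, 4 of 8 for T cells, 2 of 7 for NK cells and 3 of 6 for B cells, and 3 of 6 for dendritic cells, also had a higher effect of hyperoxia in C3H (13.3% of all genes). Of the last, Clec9a and Cd209a fell in both strains and Itgax rose in both (1.19 ± 0.16 in C3H and 0.51 ± 0.16 in C57B). Between strains in saline and hyperoxia, no T or B cell marker passed. There, 3 of 6 tested NK cell markers and 3 of 5 tested dendritic cell markers were higher in C3H (16.0% of all genes), Gzma by 1.92 ± 0.24 and Clec9a by 1.54 ± 0.18. The summed dendritic cell markers were 36.61 to 44.23 FPKM in C3H and 19.84 to 23.83 FPKM in C57B. Marker genes of lung cells other than lymphocytes moved as well. Epithelial markers had 5 of 8 lower and 1 higher in hyperoxia, and their summed FPKM went from 135526 to 198578 in room air to 18062 to 28778 in C57B and from 103035 to 257900 to 31954 to 60812 in C3H. In C57B the differences were -3.24 ± 0.26 for Scgb1a1 and -3.01 ± 0.24 for the surfactant gene Sftpa1, and Sftpc (-2.72), Ager (-0.64) and Cldn18 (-0.50) fell too. Epcam (-0.11, limma adjusted p = 0.4), Cdh1 (-0.01, 0.95) and Sftpb (0.16, 0.36) did not pass there. Endothelial markers had 3 of 6 lower and 1 higher, and in saline and hyperoxia their sum was 1235.7 to 1617.6 FPKM in C3H and 743.2 to 1050.4 FPKM in C57B. Both the epithelial and the endothelial sums were thus separate between strains there. Alveolar macrophage markers had 4 of 7 higher and 3 lower. In C57B, Marco (2.48 ± 0.28), Chil3 (2.20), Fabp4 (1.22) and Mrc1 (1.03) rose, and Ear2 (-1.63), Car4 (-1.11) and Siglecf (-0.81) fell. The part of these cells in the levels of the immunoproteasome and transporter genes was not tested.

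**Figure D5:**
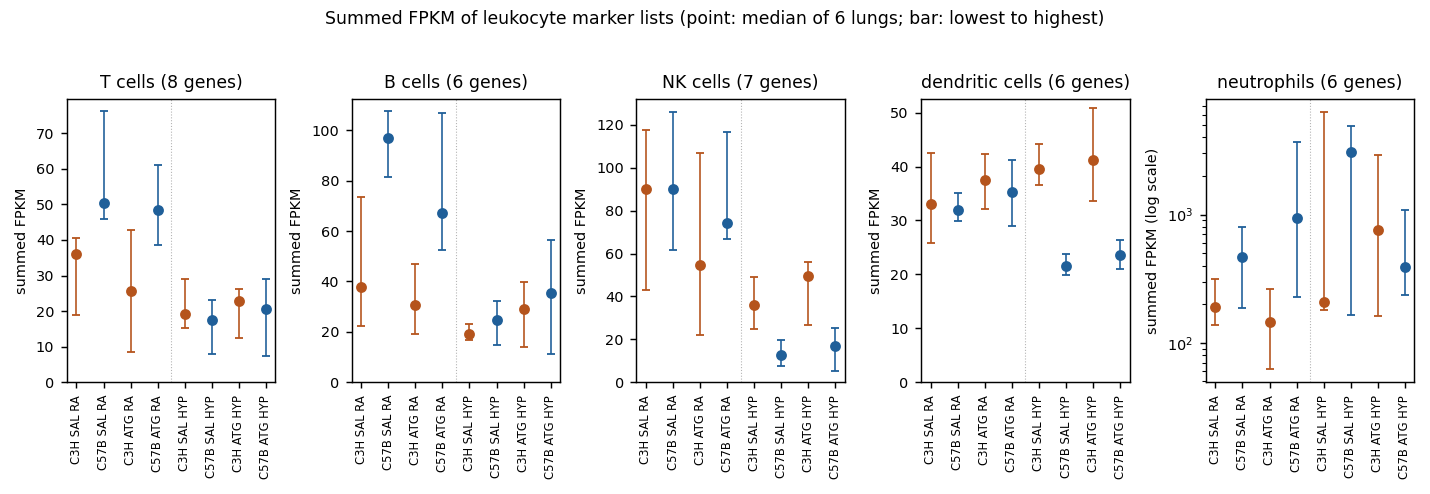
Summed FPKM of 5 leukocyte marker lists (linear axes from 0, log axis for neutrophils) by strain, injection and air; points are the median of 6 lungs and bars run from the lowest to the highest lung. Medians of the T, B and NK cell sums are lower in hyperoxia, and NK and dendritic cell sums are lower in C57B than in C3H in hyperoxia.

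Sex was compared in the 12 mice in saline and room air. None of the 10 genes were called by limma, beside 0.669% of all genes, and 3 had an unadjusted p under 0.05. Psmb9 was 0.56 ± 0.23 higher in males (limma adjusted p = 0.18), with 90.03 ± 51.19 FPKM (SD, n = 3) in C3H males and 40.15 ± 1.388 FPKM in C3H females, and the large spread came from C3H males 1 and 3. B2m was 1070 ± 312 FPKM in C3H males and 1726 ± 263 FPKM in C3H females (strain by sex interaction -0.75 ± 0.28, limma adjusted p = 0.24). No gene of the table was called for strain by sex (0.00%), and 2 of the 10 had an unadjusted p under 0.05. In hyperoxia by sex none of the 10 were called (1.80% of all genes), and 2 had an unadjusted p under 0.05. The shares of all genes under that unadjusted threshold are not given, so these counts cannot be read as an excess among the 10.

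ATG was compared with saline in each air. In room air none of the 10 genes were called by limma (0.0235% of all genes). An unadjusted p under 0.05 was found for 2, and the share of all genes at that threshold is not given. In hyperoxia Psmb8 was higher after ATG, by 0.26 ± 0.07 (limma adjusted p = 0.026), as were 3.95% of all genes. In C3H it was 46.36, 55.38 and 65.55 FPKM after saline and 62.61, 72.91 and 84.15 FPKM after ATG, and in C57B 33.13, 40.66 and 43.2 FPKM and 34.23, 41.83 and 55.61 FPKM, so the ranges overlapped in both strains. The call was lost with quantile normalization (limma adjusted p = 0.0567), with median ratio scaling (0.0993), without C3H male 8 (0.057) and without C57B male 24 (0.0685). The interaction of ATG and air was called for Psmb9 (0.62 ± 0.17, limma adjusted p = 0.04), beside 1.56% of all genes, was lost in 23 of 48 fits without 1 mouse, and was 0.39 without C3H males 1 and 3 (0.0999). Of 17 tested genes of the interferon-gamma axis 8 were higher after ATG in hyperoxia and none lower, Cxcl10 by 1.10 ± 0.26 and Iigp1 by 0.67 ± 0.12. Alveolar macrophage markers moved in the same comparison, with 4 of 7 lower after ATG, and their part was not tested.

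The levels across the study ordered differently within the set. The 16 group means of Psmb10 followed those of Tapbp (Pearson r = 0.965) and Psmb9 (0.952), whereas those of H2-D1 ran against Tap2 (-0.640). These are descriptions over groups that share strain and air. For Psmb9 and Psmb10, the C57B lungs in hyperoxia did not overlap the next group in order, C3H in saline and hyperoxia, and for Tap2 they did not overlap C57B in ATG and room air. In B2m, H2-K1, Nlrc5, Psmb8, Tap1 and Tapbp every group overlapped its neighbour in the order of means. The mean of the scaled group means of the 10 genes correlated weakly with H2-K1 (r = 0.288), Tap1 (-0.063) and H2-D1 (-0.096). With the other genes r ran from 0.600 (B2m) to 0.912 (Psmb8), so this mean does not stand for all 10. Outside the 10 genes, it was most like the levels of Tgtp1 (r = 0.931), Gbp5 (0.913), Tgtp2 (0.907), Gbp2 (0.901) and Batf2 (0.894), over 16 group means. Tgtp1, for example, was 17.83 FPKM in C57B in saline and room air and 4.055 FPKM in C57B in saline and hyperoxia, against 10.21 and 6.476 FPKM in C3H.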

How the data were processed

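Reads were aligned by the authors with GSNAP (version 2012-07-20 per the labels) on mm10, handled with SAMtools and summarised with Cufflinks; other versions are not given in the sources used here. The deposited table holds FPKM per gene and mouse, not counts. Absolute depth is unknown, and counting intervals are therefore left out; relative depth, read from the low values, ran from about 0.781 to 1.26. Akap5, listed at 999999999 in 7 lungs, was left out. All 48 mice have 1 library each, 0 pairs were identical, and mice carry separate numbers.

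Genes that reached 1 FPKM in 3 or more mice of a fit were analysed as log2(FPKM + 1) with limma 3.58.1 (trend, Benjamini-Hochberg threshold 0.05) in R 4.3.3. Strain and sex were fitted in the 12 mice of each condition, hyperoxia and ATG in all 48 mice in 16 groups. Exact permutation tests were two-sided (scipy 1.17.1). On simulated data, 72.5% of log2 changes of 1 were recovered for strain in saline and room air (15546 genes), 96% for hyperoxia in saline and 64% for hyperoxia by strain (16994 genes each).

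The genes, pathway lists and markers were chosen with earlier results of these data known. Text names the 10 genes throughout, Psmb5, Psmb6, Psmb7, Psme1, Psme2, Irf1 and Ifng, up to 2 called genes per list with the largest differences, H2-Ea-ps, and the 5 most alike genes. The named rises of Psme3, Psme4, Rela, Cxcl10, H2-Q1 and H2-Q7 beyond this rule were chosen after their values were seen. Epithelial, alveolar macrophage and dendritic cell markers named in hyperoxia beyond 2 per list also fall outside this rule. A gene covered by this rule is not reported here. Annotation came from GENCODE M21 and promoters from RefSeq. As alternatives, the pseudocount was set to 0.1, filters were loosened, values were rescaled (quantile, median ratio), the trend was dropped, other sets of mice were fitted and each mouse was left out. The fits on mice given ATG in place of saline and the strain tests of subunit ratios in hyperoxia were added after the data had been seen.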

Additional observations from a re-analysis of the deposited data

Results flagged for a closer look

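The effect of hyperoxia in saline differed between the strains, by the interaction test in limma, for 7 of the 10 genes: B2m (0.44), Tap2 (0.55), Tapbp (0.49), Psmb8 (0.87), Psmb9 (0.84), Psmb10 (0.94) and Nlrc5 (0.89), each as the C3H effect minus the C57B effect. Of all genes, 17.6% were called, 13.3% in this direction. With median ratio scaling only Psmb8 (0.68) and Psmb10 (0.75) stayed called, and without C3H males 1 and 3 B2m (0.23) was lost. The effect of ATG on Psmb9 differed between hyperoxia and room air by 0.62 (limma adjusted p = 0.04), beside 1.56% of all genes called in this direction. That call was lost in 23 of 48 fits without 1 mouse.

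Of 80 pairs of a gene and a group of 6 lungs, 5 held 1 lung whose gap to the nearest other lung, as a share of the group's range, was above Dixon's 95% critical value, where chance alone gives about 1 in 20. These were female 45 for B2m in C57B in saline and hyperoxia (1814.5 FPKM, gap 0.713), male 6 for Tap2 in C3H in ATG and room air (35.64 FPKM, 0.785), male 24 for Tapbp in C57B in ATG and hyperoxia (85.45 FPKM, 0.732), and females 30 and 36 for Nlrc5 in C3H in ATG, the first in room air (3.732 FPKM, 0.658) and the second in hyperoxia (2.915 FPKM, 0.641).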

How the results depend on the processing

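No paired analysis was possible because each mouse has its own number. With 1 mouse left out at a time, 707 of 768 called values of the genes stayed called, and under the other alternatives 328 of 368 did, 39 lost the call and 1 reversed: H2-D1 with hyperoxia in saline, -0.011 with quantile normalization. Genes of the 10 called for hyperoxia by strain were 2 with median ratio scaling, for hyperoxia in C3H 5 with either scaling, for ATG in hyperoxia 0 with either scaling, and for ATG by air 0 with either scaling and with either other filter. With all 48 mice, 3 were called for sex and 1 for strain by sex. Over all genes, calls for strain by sex were 5 with a pseudocount of 0.1, 2 with either filter or no trend and 748 with 48 mice; for sex 40 and 60 with the filters and 1915 with 48 mice; for hyperoxia by sex 162 and 188 with the filters, 174 with median ratio scaling, 6 with 24 saline mice and 20 in ATG mice; for ATG in room air 8 and for ATG by air 313 with genes above 0 in at least 1 mouse; for strain in saline and room air 2982 with 48 mice; and for hyperoxia by strain 1880 with 24 saline mice and 1743 in ATG mice. Without C3H males 1 and 3, the counts were 30 (sex), 1 (strain by sex), 1953 (hyperoxia by strain) and 5 (hyperoxia by sex).

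Leaving out 1 mouse, the genes of the 10 called ranged from 2 to 6 for strain in saline and room air, 0 to 2 for sex, 0 to 3 for strain by sex, 3 to 6 for hyperoxia in C3H, 0 to 1 for hyperoxia by sex, ATG in room air and ATG in hyperoxia, and 0 to 3 for ATG by air. Over all genes they ranged from 1306 to 4021 for strain, 20 to 3640 for sex, 0 to 2741 for strain by sex, 43 to 2368 for hyperoxia by sex, 2 to 284 for ATG in room air, 530 to 1247 for ATG in hyperoxia and 243 to 1093 for ATG by air. The highest counts over all genes came without C3H male 2, except for ATG in hyperoxia (without C57B male 21). Of the 10 genes, the most were called without C3H female 26 for hyperoxia in C3H and without C57B female 40 for ATG by air. Without C3H male 2, B2m (-0.43) and Psmb9 (0.45) were also called for strain in saline and room air. The cause was not tested. Depth is unknown and limits Nlrc5 and Ifng most.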
